A study of Triticum aestivum with 6 samples.

Results

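A group of 57 wheat genes had counts in every library of wild-type Fielder axillary buds and next to none in the buds of the tatfl1-5 mutant. The genes were chosen by their counts in the same libraries that are described here. A gene entered the group with at least 10 counts in each of the 3 Fielder libraries and at most 3 counts in each of the 3 mutant libraries. An additional 52 genes met the same limits among the 77 listed genes of one stretch of chromosome 7A, from TraesCS7A02G316900 to TraesCS7A02G327700, and were left out. The count table listed 70043 genes, of which 46809 reached the Fielder limit, so the 57 genes made up 0.122% of those that could have met the mutant limit. Because the counts of both genotypes chose the genes, the difference between mutant and Fielder is given for them as a description and not as a test.

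The mutant carried null alleles of TaTFL1-5 in the A, B and D subgenomes (aabbdd), made with CRISPR/Cas9 in the spring wheat cultivar Fielder and without the Cas9 transgene. The paper describes a single line of this genotype, which came through tissue culture, with deletions in the A and B copies and an insertion in the D copy. The reference was unedited Fielder. Axillary buds of seedlings were sequenced in 3 replicates of each genotype. No age is stated here, because the text that describes the seedlings gives it differently in different places. Whether buds of several plants were pooled for a replicate is not given in the sources used here.

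Common wheat is a hexaploid, in which most genes exist as similar copies on the A, B and D subgenomes. A tiller grows from an axillary bud, the bud in a leaf axil, and hormones that include auxin, cytokinin and strigolactone govern whether it grows out. TFL1 proteins belong to the phosphatidylethanolamine-binding family and keep meristems indeterminate.

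The 6 libraries held between 13320461 and 17174131 counts. A single count stood for 0.0583 to 0.0725 CPM (counts rescaled to a common library size after TMM normalization). Of the edited genes, 2 were listed. TaTFL1-5A (TraesCS5A02G128600) had 1, 7 and 5 counts in the mutant libraries, against 9, 14 and 21 in the Fielder libraries. TaTFL1-5B (TraesCS5B02G127600) had 20, 19 and 23 counts in the mutant and 46, 44 and 31 in Fielder. By the quasi-likelihood test of edgeR, adjusted after Benjamini and Hochberg, the p-values were 0.147 for TaTFL1-5A and 0.131 for TaTFL1-5B, and neither gene was called. TaTFL1-5D was not analysed here. No defining marker of axillary buds is annotated in the sources used here, so the labelled tissue could not be checked further. In bulk tissue, fewer cells of a type and less RNA per cell cannot be told apart, which holds for every value below.

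Most of the 57 genes were weakly expressed in Fielder. Their mean Fielder level ran from 0.736 to 8.98 CPM with a median of 1.21 CPM, whereas the 46809 genes that reached the Fielder limit had a median of 9.22 CPM. In all, 43 of the 57 genes lay under 2 CPM, and 9.81% of the genes that reached the limit did so. Only 17 of the genes had at least 20 counts in every Fielder library, and 35 had no Fielder library above 30 counts. Summed over the group, the level was 2.56, 2.71 and 3.36 CPM in mutant replicates 1, 2 and 3, against 101, 122 and 109 CPM in Fielder replicates 1, 2 and 3. This sum averaged 2.88 ± 0.425 CPM in the mutant and 111 ± 10.4 CPM in Fielder (SD, n = 3 each). The 10 genes with the highest Fielder CPM gave 46.6% of the Fielder sum.

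**Figure D1:**
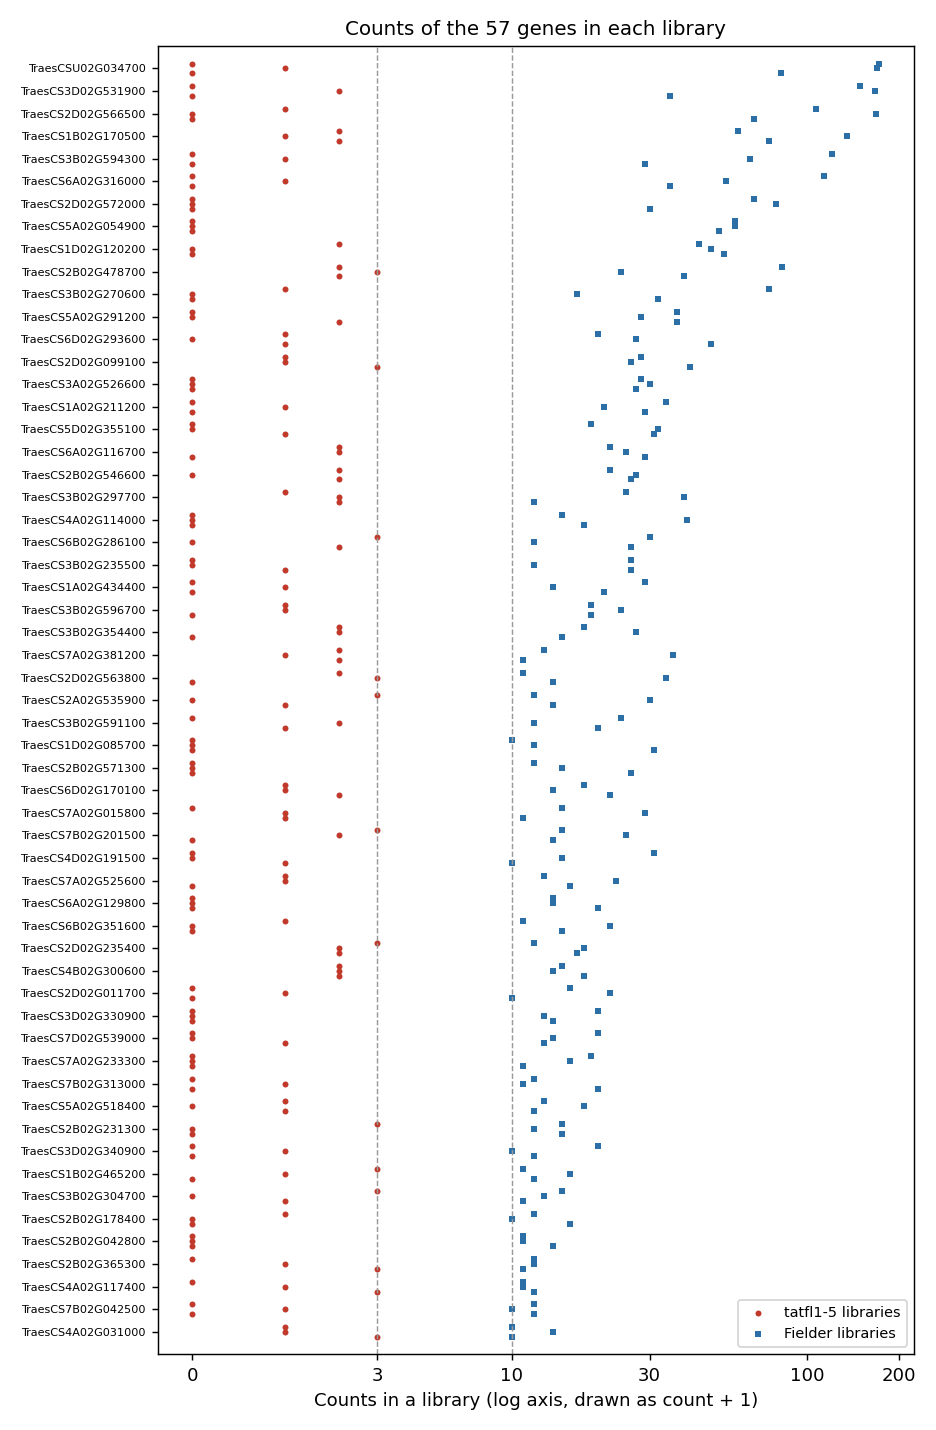
Counts of each of the 57 genes in each library, on a log axis drawn as count + 1, with the genes in order of their mean Fielder CPM. Circles are the 3 mutant libraries and squares the 3 Fielder libraries, and dashed lines mark the limits of 3 and 10 counts that chose the genes. Most squares lie between 10 and 30 counts, and a few genes at the top reach over 100.

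In the mutant the genes were close to silence, but most were not at 0 in every library. A total of 10 genes had 0 counts in all 3 mutant libraries, 27 had 1 to 3 counts over the 3 libraries together, and 20 had more, up to 7. The 57 genes together had 42, 42 and 51 counts in mutant replicates 1, 2 and 3, and 33, 27 and 29 of them were at 0 in these libraries. The limit of 3 counts for each gene in each mutant library bounds these sums, so nothing is read from how even they were.

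In the edgeR fit over all genes, 55 of the 57 passed the filter on low counts. A call needed an adjusted p-value (edgeR) below 0.05 together with a log2 fold change beyond 1 in size. All 55 were called lower in the mutant, where 5.75% of the 52228 tested genes were called lower and 7.98% higher. DESeq2 called the same number of them lower, with a background of 6.16%. The limits of the choice also keep the libraries of the genotypes apart for every one of the 57 genes. Nothing is read from these counts, because the choice used this contrast. The fitted log2 fold changes of mutant over Fielder ran from -8.86 to -2.72 with a median of -5.03, and the median of all tested genes was 0.00. A filter that a gene passes only through its Fielder counts lets no gene of this kind enter without a difference. TraesCS1D02G085700 and TraesCS4A02G031000 did not pass it.

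The gene with the highest Fielder level in CPM, which is not scaled to gene length, was TraesCSU02G034700, which is not assigned to a chromosome. It had 0, 1 and 0 counts in the mutant libraries and 82, 170 and 173 in the Fielder libraries. Its level was 0.0215 ± 0.0372 CPM in the mutant and 8.98 ± 2.66 CPM in Fielder (SD, n = 3 each). The ratio of Fielder over mutant was 430, and the single mutant count leaves it anywhere from 76.8 to 17032 (exact 95% interval, which like all intervals here covers counting error only). Its function is not annotated in the sources used here, as for most of the genes that follow.

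TraesCS3D02G531900 was next, with 0, 2 and 0 counts in the mutant and 35, 168 and 149 in Fielder. Fielder replicate 1 stood well below the other two, and the gene's Fielder level of 7.34 ± 4.29 CPM (SD, n = 3) varied more than that of TraesCSU02G034700. TraesCS2D02G566500 had 0, 0 and 1 counts in the mutant and 67, 169 and 107 in Fielder, a ratio of Fielder over mutant of 347 with an exact 95% interval from 61.9 to 13754. TraesCS6A02G316000 had 0, 1 and 0 counts in the mutant and 35, 54 and 114 in Fielder. For these 3 genes, as for TraesCSU02G034700, Fielder replicate 1 had the fewest counts and also the lowest CPM, which takes its smaller library into account. For TraesCS3D02G531900 the levels were 2.54, 10.8 and 8.68 CPM in Fielder replicates 1, 2 and 3. The cause of the low replicate was not tested. The lowest Fielder library of each still held at least 35 counts, far above the limit of 10.

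TraesCS2D02G572000 and TraesCS5A02G054900 had the highest Fielder CPM among the genes with 0 counts in all mutant libraries. Their rank is not scaled to gene length. TraesCS2D02G572000 had 30, 79 and 67 counts in Fielder and was at least 59.4-fold lower in the mutant, with the mutant taken at a floor of 3 counts over its 3 libraries. TraesCS5A02G054900 had 51, 58 and 58 counts in Fielder and was at least 56.4-fold lower on the same floor. Its Fielder libraries agreed closely, at 3.60 ± 0.193 CPM (SD, n = 3). The other 8 genes without a mutant count were TraesCS3A02G526600, TraesCS4A02G114000, TraesCS1D02G085700, TraesCS2B02G571300, TraesCS6A02G129800, TraesCS3D02G330900, TraesCS7A02G233300 and TraesCS2B02G042800. Their bounds ran from at least 12.1-fold lower in the mutant for TraesCS2B02G042800 to at least 28.7-fold lower for TraesCS3A02G526600, and they follow the Fielder depth.

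Other genes with a high Fielder CPM for the group had a few counts in the mutant. TraesCS2B02G478700 had 2, 3 and 2 counts in the mutant and 39, 24 and 83 in Fielder, and TraesCS1B02G170500 had 2, 1 and 2 in the mutant and 75, 135 and 59 in Fielder. Both had counts in each mutant library, and the source of these few counts was not tested. The fitted log2 fold changes were -4.30 with a standard error of 0.70 for TraesCS2B02G478700 and -5.68 with a standard error of 0.59 for TraesCS1B02G170500. TraesCS2D02G235400, picked out after its values were seen, with 2, 2 and 3 counts in the mutant and 17, 18 and 12 in Fielder, had the smallest fitted difference of the tested genes of the group, -2.72 with a standard error of 0.83. It lost the call in 5 of the 6 edgeR fits that left out one library. Its ratio of Fielder over mutant was 6.80, with an exact 95% interval from 3.05 to 17.8. The same counts chose the gene, so the ratio is a description only.

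The annotation that could be read covered chromosomes 1A, 1B, 1D and part of 2A, and only genes that the paper had selected as differentially expressed. It held 6 of the 57 genes, all described as unnamed protein products, and 3 of them had gene ontology (GO) terms. TraesCS1D02G120200 carried the gene symbol DAD2 and the GO terms for an ester hydrolase, for strigolactone biosynthesis and for the formation of secondary shoots. In petunia, DAD2 is the receptor of strigolactones, the hormones that hold back the outgrowth of axillary buds. The symbol does not show that TraesCS1D02G120200 is such a receptor in wheat, and its function was not tested. TraesCS1D02G120200 had 0, 0 and 2 counts in the mutant libraries and 53, 48 and 44 in the Fielder libraries. The limits of the choice set the Fielder libraries above the mutant libraries, so nothing is read from that gap. Its level was 0.0439 ± 0.0761 CPM in the mutant and 3.16 ± 0.644 CPM in Fielder (SD, n = 3 each), and the ratio of Fielder over mutant was 73.4, with an exact 95% interval from 19.95 to 612. It was the only one of the 1078 annotated genes with strigolactone in a GO term. The copies of this gene on 1A and 1B were not identified in the sources used here, so whether they changed was not analysed.

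TraesCS1A02G211200 carried GO terms for several cell parts, among them the cell wall and the extracellular region, for defense against fungi, and for the responses to cold, salt stress and abscisic acid, a stress hormone. It had 0, 1 and 0 counts in the mutant and 29, 21 and 34 in Fielder, and the ratio of Fielder over mutant was 85.0, with an exact 95% interval from 14.9 to 3398. TraesCS1B02G465200 carried terms for a ubiquitin transferase of the endoplasmic reticulum membrane, where such enzymes mark misfolded proteins for breakdown, for the making of wax, cutin and suberin, and for the response to water deprivation, among others. It had 0, 1 and 3 counts in the mutant and 12, 16 and 11 in Fielder. This gene stood near both limits of the choice, and it was called lower in none of the 6 edgeR fits that left out one library. The other annotated genes, TraesCS1A02G434400, TraesCS1D02G085700 and TraesCS1B02G170500, had no GO term. TraesCS1A02G434400 had 0, 1 and 0 counts in the mutant and 21, 14 and 29 in Fielder.

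Among all genes of that annotation with an uncharacterized description, 663 were tested, 270 were called lower and 375 higher in the mutant. All 6 annotated genes of the group carried such a description, so keyword classes read from descriptions, such as kinases or histones, could not hold any of them, and no count by class is given. The genes of this annotation had been picked as changed in these same libraries, so the counts are not independent evidence.

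TraesCS3B02G594300 was the only gene of the group for which the study designed quantitative PCR primers. The paper reports that quantitative PCR of selected differentially expressed genes matched its sequencing, and values for this gene were not compared here. The primer sequences, from the primer list of the paper, are given below. The letters run 5′ to 3′, and no part of them is marked.
Forward primer: cctcgtccccctcctcg
Reverse primer: gccgacttgtccccgc
In the sequencing counts TraesCS3B02G594300 had 0, 1 and 0 in the mutant libraries and 29, 65 and 121 in the Fielder libraries. The Fielder replicates thus differed among themselves, at 4.44 ± 2.48 CPM (SD, n = 3). The ratio of Fielder over mutant was 218, with an exact 95% interval from 38.6 to 8636.

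Levels of different genes can be compared only per length. The deposited FPKM values were used for this, which scale fragments to gene length and library size. TraesCS3D02G531900 had the highest Fielder level, 0.00, 0.146 and 0.00 FPKM in the mutant libraries and 3.11, 13.1 and 10.3 FPKM in the Fielder libraries. TraesCSU02G034700, TraesCS6A02G316000, TraesCS3B02G594300 and TraesCS2B02G546600 followed, with Fielder means of 6.83, 5.91, 5.21 and 4.28 FPKM. TraesCS2B02G546600 entered this list through its length of 390 bases, since it had only 2, 0 and 2 counts in the mutant and 26, 27 and 22 in Fielder. Over the group, the Fielder mean ran from 0.379 to 8.81 FPKM with a median of 1.36 FPKM, and 34 genes lay above 1 FPKM. The genes that reached the Fielder limit had a median of 5.51 FPKM.

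The genes were also shorter than most. The length that counts and FPKM values imply had a median of 1263 bases and a range from 264 to 3461 bases, against a median of 1708 bases over all tested genes. In all, 41 of the 57 genes were shorter than that median. A short gene collects fewer reads at the same level per length, and the part of this in the choice was not tested.

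The spread among the Fielder libraries was wide for some of these genes and narrow for others. The coefficient of variation of CPM over the 3 Fielder libraries had a median of 31.9%, against 21.7% over the 50482 tested genes with a mean Fielder count of at least 10. Most of those genes had far higher counts, and counting error raises the coefficient at low counts, so the sets differ in depth and no difference is read from these medians. For the group it ran from 4.55% for TraesCS3B02G304700 to 76.0% for TraesCS1D02G085700. TraesCS3B02G304700 had 11, 13 and 15 counts in Fielder, a steady but low level, beside 1, 0 and 3 in the mutant. TraesCS5A02G054900, described above, and TraesCS2B02G365300, with 3, 1 and 0 counts in the mutant and 11, 12 and 12 in Fielder, were the other 2 genes with the least spread. At the other end, TraesCS1D02G085700 had 0 counts in every mutant library and 31, 12 and 10 in Fielder, so that replicate 1 carried most of its signal. TraesCS7A02G381200 had 2, 1 and 2 counts in the mutant and 11, 36 and 13 in Fielder. TraesCS3B02G270600 had 0, 0 and 1 in the mutant and 32, 17 and 75 in Fielder. The high library was a different one in each of these 3 genes. Over the group, 25, 21 and 11 genes had their highest CPM in Fielder replicates 1, 2 and 3, where the shares over the 46809 genes that reached the Fielder limit were 36.7%, 29.7% and 33.6%. The lowest CPM was in replicate 3, the largest library, for 30 of the 57 genes and for 34.8% of the genes that reached the limit. A fixed limit of 10 counts stands for the lowest CPM in the largest library, and its part in this was not tested.

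The only values of the same kind that the choice had not used came from leaving one library out. The limits were applied to 5 libraries at a time, and the genes so chosen were then read in the sixth. Without mutant replicate 1, 2 or 3, the limits chose 118, 96 and 103 genes, whose median count in the left-out mutant library was 4, 2 and 3. Without Fielder replicate 1, 2 or 3, they chose 108, 87 and 94 genes, whose median count in the left-out Fielder library was 10.5, 13 and 12. The left-out mutant libraries were thus low and the left-out Fielder libraries higher, but less sharply apart than in the libraries that chose the genes. Over all genes that reached the Fielder limit, the medians in the same libraries lay between 125 and 158 counts.

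A share of the chosen genes did not keep to the limits in the library that had no part in the choice. Of the genes chosen without mutant replicate 1, 2 or 3, 27, 14 and 16 had 10 counts or more in that library, with a highest count of 39. Of the genes chosen without Fielder replicate 1, 2 or 3, 29, 14 and 14 had at most 3 counts in that library. The left-out library kept to its limit for 48.3% to 65.5% of the genes, and these were the 57 genes each time, since all 6 libraries must meet the limits to define them. The size of the group therefore depended on every library.

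**Figure D2:**
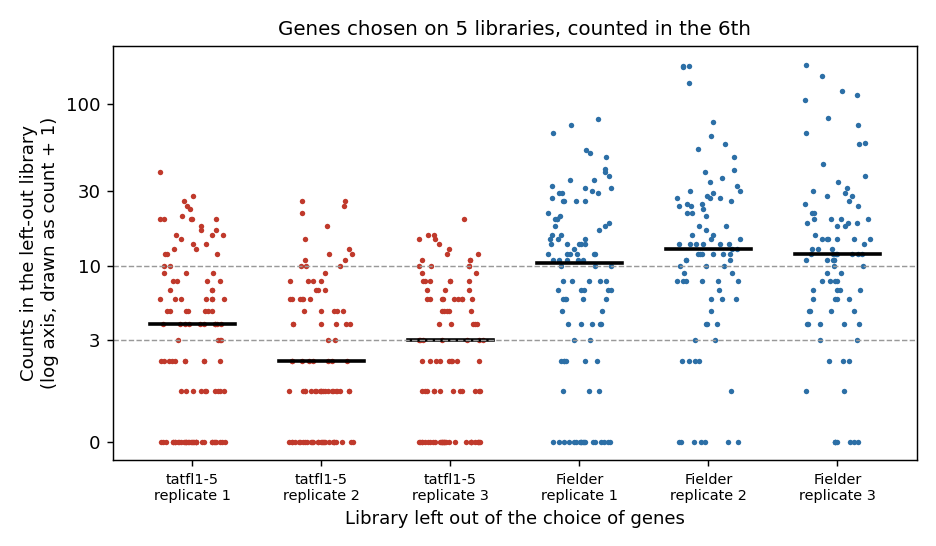
Counts in each library of the genes that the other 5 libraries chose, on a log axis drawn as count + 1, with mutant libraries on the left and Fielder libraries on the right. Each point is a gene, bars are medians, and dashed lines mark 3 and 10 counts. The medians are 4, 2 and 3 counts in the mutant libraries and 10.5, 13 and 12 in the Fielder libraries, and points of both genotypes lie on either side of the limits.

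The genes lay on 20 of the 21 chromosomes, and chromosome 5B held none. Chromosomes 3B, 2B and 2D held the most, with 8, 7 and 6 of them, which is 36.8% of the group. These 3 chromosomes held 15.6% of the genes that reached the Fielder limit. They were picked because they held the most, so a share above that was to be found by the choice alone. By subgenome, 17 lay on A, 23 on B and 16 on D chromosomes, out of 15473, 15315 and 15581 genes that reached the limit. Counts of this size leave wide errors, and the differences between chromosomes were not tested.

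Positions were read from the order of the identifiers, which follow the chromosome, because the sources used here give no coordinates in bases for them. In this order 15 of the 56 genes with a chromosome lay in the last 10% and 6 in the first 10%. Together this was 37.5% of the genes, against 17.6% of all genes that reached the Fielder limit and 18.9% of the 2869 other genes that were called lower outside the 7A run. The last 10% held 26.8% of the group, against 8.72% of the genes that reached the limit. The first 10% held 10.7%, against 8.92%, which is close. These sets differ in Fielder level, and the difference in place was not tested. The genes in the last 10% included TraesCS3D02G531900, TraesCS2D02G566500, TraesCS2D02G572000, TraesCS3B02G594300 and TraesCS3A02G526600, and so several of those with the highest Fielder CPM. The middle of the chromosomes was not empty, with 2 to 6 genes in each step of 10% between.

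**Figure D3:**
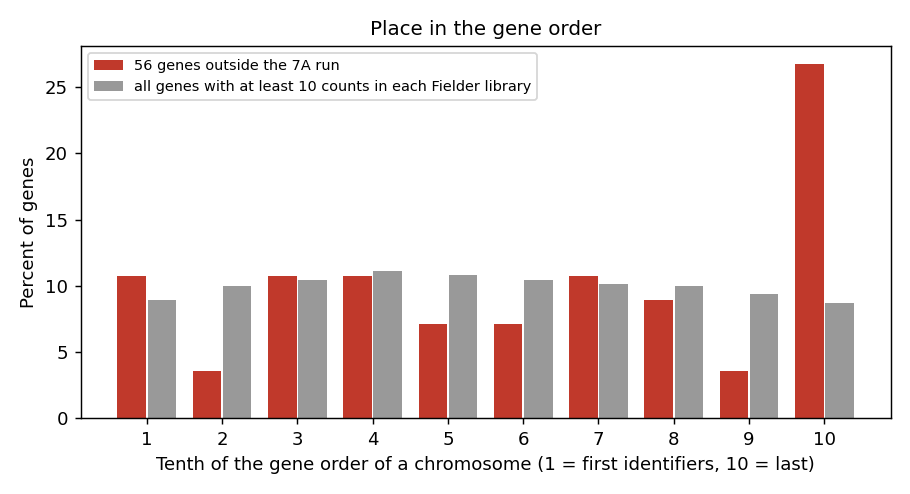
Percent of genes in each step of 10% along the gene order of their chromosome, for the 56 genes outside the 7A run that have a chromosome (left bars) and for all genes with at least 10 counts in each Fielder library (right bars). The last step holds 15 of the 56 genes, 26.8%, against 8.72% of the other set.

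The genes did not stand side by side. No gene of the group had another within 10 listed genes, the nearest pair was 12 places apart, and the median distance to the nearest other was 419 places. In the 7A run all 52 genes that met the limits had another within 5 places, and 44 were direct neighbors. The run was marked out as a stretch with earlier results of these data known. Its closeness follows from that choice and is given as a description only. Only 8 of the genes outside the run had another within 30 places. TraesCS3B02G591100, TraesCS3B02G594300 and TraesCS3B02G596700 lay near the end of 3B, and TraesCS2D02G563800, TraesCS2D02G566500 and TraesCS2D02G572000 near the end of 2D. TraesCS4A02G114000 and TraesCS4A02G117400 on 4A were 26 places apart.

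Within 5 places on each side, 360 of the 560 listed neighbors (64.3%) had at least 10 counts in every library of both genotypes, against 63.8% of all listed genes. Another 137 of the 560 were too low to be tested, and 22 had no count in any mutant library. The nearest tested gene on each side had by its choice passed the filter on low counts. For 41 of the 56 genes, both of these flanking genes had at least 10 counts in every mutant library. For 37 genes neither of these flanking genes was called, for 17 one was and for 2 both were, and no gene had both flanks called lower. Of the 112 flanking genes, 14 (12.5%) were called lower, against 5.75% of all tested genes, and 7 (6.25%) higher, against 7.98%. Their median log2 fold change was -0.12. The flanking genes did not enter the choice, but neighboring genes are not independent, so these shares are given without a test.

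A wider window gave shares closer to those of all genes. Within 5 places on each side, 423 other genes were tested, of which 30 (7.09%) were called lower and 33 (7.80%) higher in the mutant. These genes are not independent either, so no interval or test is given for the shares. Their median log2 fold change was -0.05. No gene of the group had more than 3 lowered neighbors in this window, and 33 had none. TraesCS3B02G596700 was the one with 3. It had 0, 1 and 1 counts in the mutant and 19, 24 and 19 in Fielder. In the 7A run, 56 of the 77 listed genes were tested and all 56 were called lower, with a median log2 fold change of -9.17. Nothing is read from this either, since the run was marked out with earlier results of these data known.

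**Figure D4:**
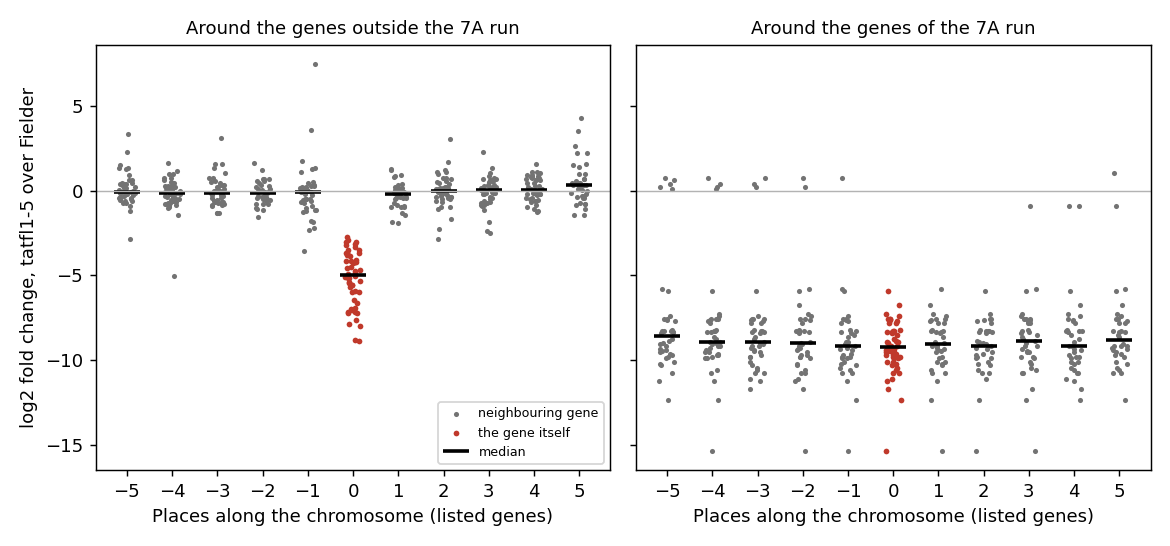
Fitted log2 fold change of mutant over Fielder for tested genes up to 5 places on either side of the 56 genes with a chromosome (left) and of the 52 genes of the 7A run (right). Red points at place 0 are the genes themselves, grey points their neighbors, and bars the medians. Around the genes outside the run the neighbors centre near 0, with a median of -0.05 over all of them, whereas around the run's genes most neighbors are as low as the genes. The run was marked out with earlier results of these data known, so its panel is a description only.

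The limits of the choice cut through genes with very similar counts. Just inside, TraesCS4A02G031000 had 3, 1 and 1 counts in the mutant and 10, 14 and 10 in Fielder, and TraesCS7B02G042500 had 0, 1 and 0 in the mutant and 12, 10 and 12 in Fielder. TraesCS2B02G178400, TraesCS3D02G340900 and TraesCS2D02G011700 also had a Fielder library with exactly 10 counts, as did 7 genes in all, and each had 1 count over the mutant libraries. A mutant library with exactly 3 counts occurred in 13 genes.

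Just outside, 4 genes missed the Fielder limit by 1 count and 27 missed the mutant limit by 1 count. TraesCS7D02G125000 had 0 counts in every mutant library and 17, 21 and 9 in Fielder. TraesCS5A02G376600 had 1, 0 and 1 in the mutant and 11, 9 and 15 in Fielder. Of the 27 genes outside the mutant limit, those with the highest Fielder level are named, so their high levels follow from that pick. TraesCS4A02G400600 had 4, 4 and 2 counts in the mutant and 51, 175 and 247 in Fielder, a Fielder level of 9.78 CPM, which is above that of any gene inside the group. TraesCS5D02G395600 had 4, 0 and 1 counts in the mutant and 40, 127 and 155 in Fielder, and TraesCS2A02G563400 had 4, 0 and 3 in the mutant and 15, 124 and 108 in Fielder. The 57 genes are therefore one part of a wider range of genes with very low mutant counts and more counts in Fielder.

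The reverse limits, at least 10 counts in every mutant library and at most 3 in every Fielder library, were met by 96 genes. On the Fielder side, the limits were met by 109 genes when the 7A run is included and by 57 without it.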

How the data were processed

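RNA of axillary buds was sequenced in 6 libraries, 3 of tatfl1-5 and 3 of Fielder, grouped by the genotype and replicate number of the labels. Filtered reads had been aligned by the authors to the Ensembl Plants wheat genome and gene set, and they deposited raw counts for 70043 genes. FPKM values, which the authors deposited beside the counts, imply one length for each gene, taken here as its length. The aligner and counter are not given in the sources used here. Identifiers matched in the reference gene table numbered 0.

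The members and lists were chosen with earlier results of these data known. Genes named with values were those highest in Fielder CPM (10) or FPKM (5), and those annotated or named by the paper. Also named were the genes most and least variable in Fielder (3 each), those nearest to the limits (5 on each side) and the edited genes. A few were chosen after their values were seen. Outside the mutant limit, genes were taken by highest Fielder level. Whole-table tests used edgeR 4.0.16 in R 4.3.3 (filterByExpr, TMM, quasi-likelihood test) with Benjamini-Hochberg adjustment over 52228 genes, and were tested on simulated data. CPM used TMM library sizes. Alternatives were DESeq2 1.42.0, RLE factors, unscaled library sizes, testing without a filter, a test against 2-fold, a replicate block, other limits and windows, and leaving out each library. Depth limits the precision, as 10 counts were worth about 0.644 CPM.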

Additional observations from a re-analysis of the deposited data

How the results depend on the processing

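The number of genes meeting the limits depended on the limits. It was 159 with a minimum of 5 Fielder counts, 17 with a minimum of 20, 10 with a maximum of 0 mutant counts and 110 with a maximum of 5, and 40 with limits in CPM. Leaving out each library in turn gave 87 to 118 genes. The edgeR test against the 2-fold threshold called 1396 genes in the whole table, 494 of them lower, and 35 of the 57 genes, and among the genes within 5 places 1.18% lower and 1.89% higher. The other alternatives kept each of these counts within 1.5 times. Leaving out each library gave 6174 to 8330 called genes, 2615 to 3276 of them lower. The replicate numbers did not pair the libraries, with correlations of the deviations between -0.0237 and 0.0505. With the replicate block, 50 of the 57 genes were called lower, and so were 2928 genes of the whole table. Leaving out each library in turn, 44 to 51 of the 57 genes were called lower, and 41 were called every time. Nothing is read from these counts of the group, because all these fits used libraries that chose the genes. For 36 named genes, 374 values under the alternatives kept direction and call and 58 kept the direction without the call. Among the named genes, TraesCS1B02G465200, TraesCS2B02G365300 and TraesCS4A02G117400 lost the call in all 6 fits that left out 1 library. TraesCS3B02G304700 and TraesCS2D02G235400 lost it in 5, TraesCS2D02G563800 in 3, and TraesCS2B02G178400, TraesCS7A02G381200 and TraesCS7B02G042500 in 2. The first 5 of these also lost it with the replicate block. Other genes of the group lost it in some fits too. TraesCS2B02G231300 was called in only 1 of the 6 fits, TraesCS4B02G300600 in 2, TraesCS2A02G535900 and TraesCS7B02G201500 in 3, and TraesCS5A02G518400 in 5. The cause was not tested.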
